A study of Mus musculus with 405 samples.

Results

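The genes examined here are 10 targets of the transcription factor NRF2, taken as a fixed list of symbols: Hmox1, Nqo1, Gclm, Gclc, Txnrd1, Srxn1, Slc7a11, Gstm1, Gsta4 and Osgin1. All 10 were among the 13304 genes of a chemical screen and among the 23893 genes of a count table for the fungicide pyraclostrobin. Cortical cells from embryonic day 15 embryos of C57BL/6J dams and CAST/EiJ males were plated with serum and B27 supplement, kept in medium with a mitotic inhibitor, and exposed at day in vitro 7 for 24 h. Every group shared this background, and each group received vehicle (DMSO) or 1 chemical at a concentration below the study's limit on cell death relative to vehicle. The screen held 49 vehicle libraries and 344 libraries from 297 chemicals, of which 282 had 1 library and 15 had 2 or more. The count table held 4 libraries of pyraclostrobin at 0.1 μM and 4 of vehicle. The labels number them as replicates but do not say that each came from a separate culture. A figure legend of the study gives fewer biological replicates than libraries for this experiment and calls the vehicle controls matched. Which libraries share a culture or a match is not labelled, so the p-values measure the spread between these libraries.

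NRF2, encoded by Nfe2l2, is held in the cytoplasm by KEAP1 and degraded in unstressed cells. When cysteines of KEAP1 react with electrophiles or oxidants, NRF2 escapes, enters the nucleus, pairs with small MAF proteins and binds antioxidant response elements near its targets. In brain the response is known to be stronger in astrocytes than in neurons, and the cultures contain both. Gclc and Gclm encode the catalytic and modifier subunits of the enzyme that limits glutathione synthesis, and Slc7a11 encodes the transporter that imports cystine for it. Gstm1 and Gsta4 encode glutathione transferases. Txnrd1 encodes a thioredoxin reductase, Srxn1 the sulfiredoxin that restores peroxiredoxins, Nqo1 a quinone reductase, Hmox1 the inducible heme oxygenase, and Osgin1 an oxidative stress induced growth inhibitor.

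The members lie on 5 chromosomes. On the NCBIM37 build of the mouse genome (mm9), Hmox1 spans chr8:77617490-77624495, Nqo1 chr8:109912125-109927106 and Osgin1 chr8:121958024-121970156. Gclc lies at chr9:77602342-77642292 and Gsta4 at chr9:78039773-78057155, while Slc7a11 (chr3:50168858-50247535), Gstm1 (chr3:107815173-107820891) and Gclm (chr3:121948475-121972902) share another chromosome. Srxn1 lies at chr2:151931252-151937112 and Txnrd1 at chr10:82296696-82360469. Gstm1 has close relatives, and reads that match several of them cannot be assigned with certainty.

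The letters of the antioxidant response element were sought before the members' start sites. The strict form TGACTCAGC, read on both strands, was present in the 5000 bases before the annotated start of 2 of the 10 members, Hmox1 and Gclc, and before 7.07% of 22377 protein-coding genes. The 3 matches are given 5′ to 3′ on the gene's strand, with the match in capitals; each is the reverse complement, so that the motif runs on the other strand.
Hmox1, chr8:77613639-77613667, 3841 bases before the start: gacagattttGCTGAGTCAccctctgttc
Gclc, chr9:77598542-77598570, 3790 bases before the start: cgcgcagagtGCTGAGTCAcggtgaggcg
Gclc, chr9:77600315-77600343, 2017 bases before the start: cagctgtcctGCTGAGTCAtgcaggtgta

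The shorter form TGACNNNGC, which includes the strict one, was sought in RefSeq promoter windows of build GRCm38.p6, which run from 250 bases before to 50 bases after a start. Windows were held for 7 members, Nqo1, Gclm, Txnrd1, Srxn1, Slc7a11, Gstm1 and Osgin1, with 10 windows in all, and 3 of these 10 contained the motif, against 12.4% of all 32851 windows. Txnrd1 has 3 windows for alternative starts, of which 1 held a match; in the 5000 bases before the NCBIM37 start of Txnrd1 given above there was none. Every match found in the windows of the members is shown, whatever the expression of the gene. Gstm1 and Nqo1, which also rose in comparisons below, had windows without a match.
Gclm, chr3:122245413-122245441, from 134 bases before the start: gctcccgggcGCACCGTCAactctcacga
Txnrd1, chr10:82859104-82859132, from 92 bases before the start: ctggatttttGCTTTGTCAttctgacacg
Srxn1, chr2:152105542-152105570, from 28 bases after the start: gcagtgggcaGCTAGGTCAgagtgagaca

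A match in these windows is a string of letters and not a measured binding site. In 5000 bases the short form stood before 77.9% of genes, so it separates few genes there.

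Values of the screen are log2 deviations from the median of each gene over the libraries; they carry no level, and 0 is an ordinary culture. Over the 49 vehicle libraries, Hmox1 ran from -0.87 to 0.61 with a median of -0.04, Srxn1 from -0.49 to 0.27 with a median of -0.01, and Txnrd1 from -0.34 to 0.27 with a median of 0.00. The SD over vehicle libraries was 0.14 for Txnrd1, 0.16 for Srxn1, 0.19 for Gclm, 0.23 for Gclc and Slc7a11, 0.29 for Gstm1 and 0.32 for Hmox1. For 3 members it was much larger, at 0.87 for Nqo1, 0.92 for Osgin1 and 1.02 for Gsta4, above the 90th percentile of all genes (0.62). These were also the members with the fewest counts in the count table, and their single libraries are imprecise. The median SD over all genes was 0.25.

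More chemicals raised the members past the vehicle range than was usual for a gene of the screen. Hmox1 lay above its highest vehicle library with 48 of 297 chemicals, Srxn1 with 47 and Txnrd1 with 32. Gsta4 did so with 30, Osgin1 with 29, Nqo1 and Gstm1 with 18 each, Gclm with 11 and Slc7a11 with 9. Over all genes the median was 4 chemicals and the 90th percentile 15. Gclc was the exception, with 1 chemical. Below the lowest vehicle library lay between 0 chemicals (Nqo1) and 8 (Gclc and Txnrd1), against a median of 5 over all genes. With 187 chemicals, no member exceeded its vehicle range.

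**Figure D1:**
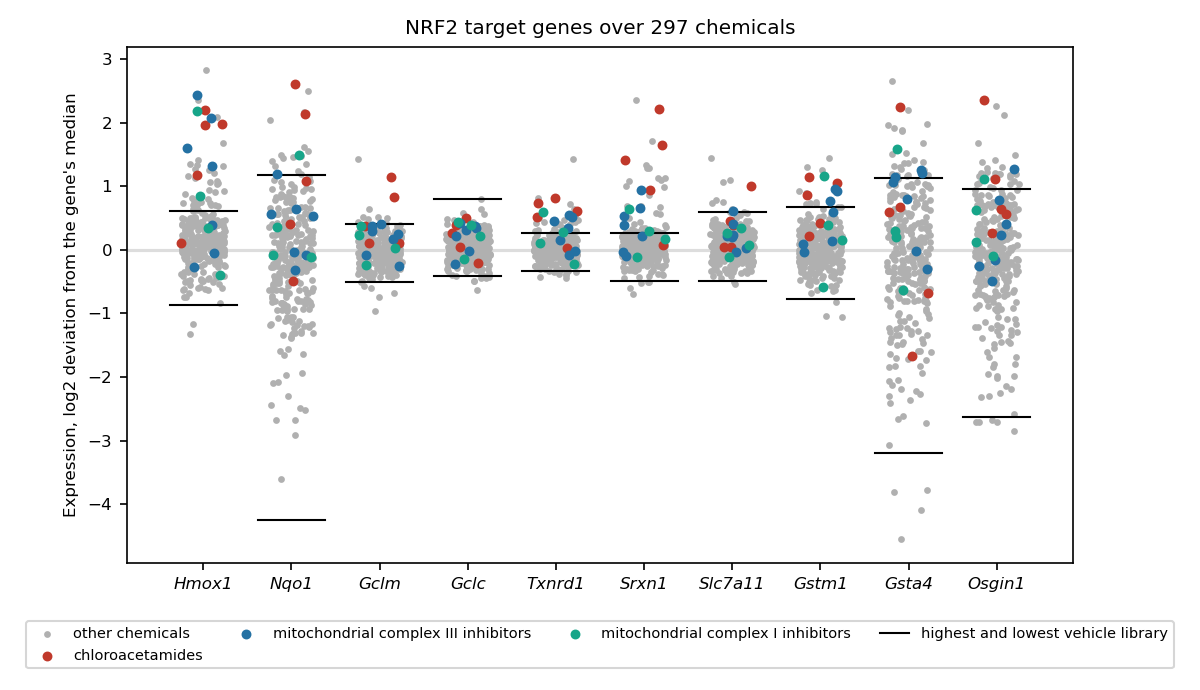
Values of the 10 members (horizontal axis) in the screen, as log2 deviation from the gene's median (vertical axis), with 1 point for each of 297 chemicals, at the median of its libraries where there are several. Black lines mark the lowest and highest of 49 vehicle libraries, and coloured points mark chloroacetamides (red) and inhibitors of complex III (blue) and complex I (green); Hmox1 exceeded its vehicle range with 48 chemicals and Gclc with 1.

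The strongest single response came from the organophosphate insecticide phosalone at 10 μM. In its 1 library, Hmox1 stood at 2.82, Gsta4 at 2.66, Nqo1 at 2.49, Srxn1 at 2.36 and Osgin1 at 2.25. Gstm1 and Slc7a11 each stood at 1.45, Gclm and Txnrd1 at 1.434, and Gclc at 0.80. All 10 members lay above their highest vehicle library, and phosalone was among the 5 highest chemicals of every member. Acetochlor was among the 5 highest for 8 members, butachlor for 6, and naled and quintozene for 4 each. These are values of single libraries and carry no test. As a fixed rule of size, a member was counted with a chemical when it lay at least 1 log2 unit above the vehicle median and above the highest vehicle library. By that rule 9 members were raised by phosalone and 7 by acetochlor, where 0.827% and 0.789% of all genes passed.

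Ranked by the mean of the members, each divided by its SD over chemicals, the 10 highest chemicals were phosalone, acetochlor, butachlor, naled, alachlor, quintozene, fenpyroximate, trifloxystrobin, trichlorfon and malaoxon. Of these, 9 were used at 10 μM and fenpyroximate at 0.1 μM. The number of members counted by the rule of size was 4 for butachlor, fenpyroximate and malaoxon, 5 for naled, quintozene and trichlorfon, and 3 for alachlor and trifloxystrobin. Between 0.286% (butachlor) and 1.84% (fenpyroximate) of all genes passed with these 8 chemicals. The pattern within the list differed between chemicals. Quintozene, a chlorinated nitrobenzene fungicide, gave 1.70 for Srxn1 and 1.07 for Slc7a11 but -0.13 for Gstm1, which lies inside the vehicle range. Naled gave 2.35 for Hmox1 and 1.31 for Gstm1 with 0.26 for Slc7a11, which does too.

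**Figure D2:**
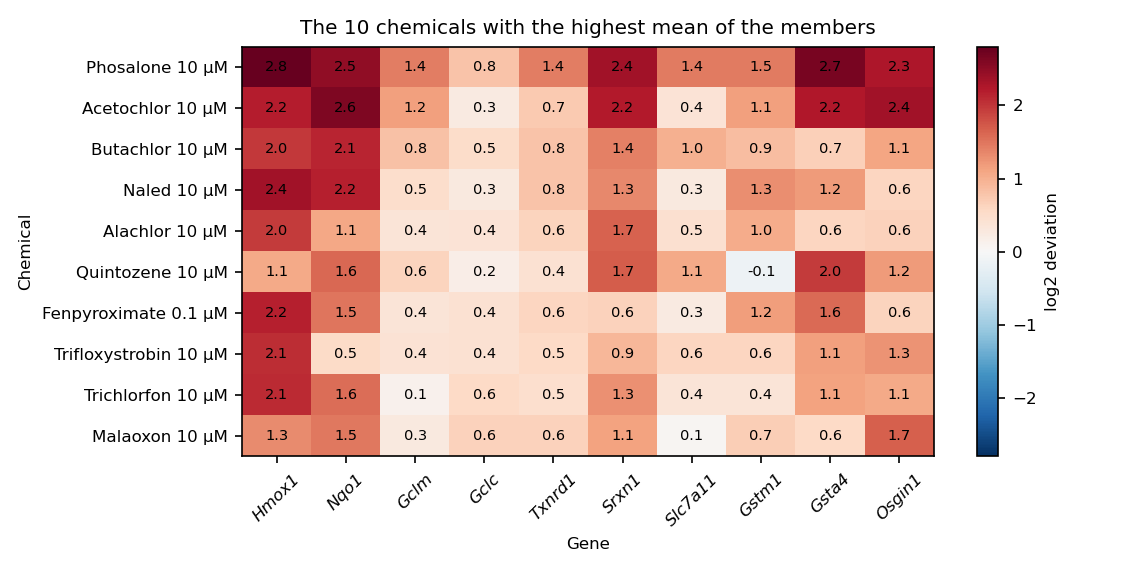
Log2 deviation of the 10 members (columns, with the value in each cell) for the 10 chemicals with the highest mean of the members (rows, with concentration). Phosalone was high for all 10 members, and Gclc stayed below 1 in each row.

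Neuron markers lay low with the 2 mitochondrial inhibitors among these 10 chemicals. With fenpyroximate and with trifloxystrobin, all 8 neuron markers lay below their lowest vehicle library, with median deviations of -0.59 and -0.84. With the other 8 chemicals 0 or 1 marker did so, and the median over the markers lay between -0.16 (trichlorfon) and 0.15 (quintozene). Of 7 astrocyte markers, 2 lay above the vehicle range with fenpyroximate, 1 with trifloxystrobin and 0 with the other 8 chemicals. In these bulk libraries fewer cells of a type and less RNA per cell cannot be told apart.

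By the same rule of size, 66 chemicals raised at least 1 member, 17 at least 3 and 6 at least 5. The 17 comprised 5 organophosphates (phosalone, naled, trichlorfon, malaoxon and azamethiphos), 3 chloroacetamides, 2 dithiocarbamates (mancozeb and metiram-zinc) and 2 complex III inhibitors (famoxadone and trifloxystrobin). Fenpyroximate, methyl isothiocyanate, chlorothalonil, quintozene and fluazinam made up the rest.

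The first comparison asked which chemical classes raised the members. Of the 297 chemicals, 188 fell into 26 classes of at least 3, by mode of action or structure, and each class was compared with all chemicals outside it by limma with Benjamini-Hochberg adjustment over all genes (threshold 0.05). In 2 classes members rose: 5 of 10 with the chloroacetamide herbicides and 3 of 10 with the inhibitors of mitochondrial complex III. Over all 26 classes and 10 members 8 pairs were called higher and 0 lower; 2 pairs were called lower by limma on single libraries. In 24 classes no member was called. Of all genes, 2.12% were called higher and 6.07% lower with topoisomerase 1 inhibitors, 0.564% and 3.98% with complex I inhibitors, 0.256% and 0.195% with pyrethroids, 0.15% and 0.00752% with sterol demethylase inhibitors, 0.0225% and 0.248% with dinitroanilines, and 0.00752% and 0.0225% with protoporphyrinogen oxidase inhibitors. Genes were called lower but not higher with thiol-reactive compounds (0.0451%), phenylureas (0.0301%), triazines (0.0225%), cyclohexanediones (0.015%) and phthalates (0.00752%).

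Chloroacetamides are herbicides that carry a reactive chloroacetyl group on an amide nitrogen, and all 5 were used at 10 μM with 1 library each. Only 0.0676% of all genes, 9 in number, were called higher in this class, and 5 of those 9 were members. Srxn1 stood at 2.22 with acetochlor, 1.65 with alachlor, 1.42 with butachlor, 0.94 with metolachlor and 0.07 with dimethenamid. The first 4 lay above every vehicle library, and dimethenamid lay inside the vehicle range. The class mean exceeded that of other chemicals by 1.18 ± 0.16 (SE, n = 5; limma adjusted p = 1.35e-08). Hmox1 followed the same division, at 2.20 with acetochlor, 1.98 with butachlor, 1.96 with alachlor, 1.17 with metolachlor and 0.10 with dimethenamid. Its difference was 1.28 ± 0.25 (SE, n = 5; limma adjusted p = 0.00194).

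Txnrd1 rose by less, in the same 4 chemicals. It stood at 0.81 with butachlor, 0.73 with acetochlor, 0.62 with alachlor, 0.52 with metolachlor and 0.03 with dimethenamid, a difference of 0.51 ± 0.10 (SE, n = 5; limma adjusted p = 0.00181). Gclm rose by 0.52 ± 0.11 (SE; limma adjusted p = 0.0167), with acetochlor at 1.15 and butachlor at 0.82 above the vehicle range and the other 3 between 0.11 and 0.37, inside it. Gstm1 rose by 0.68 ± 0.16 (SE; limma adjusted p = 0.0324), with acetochlor, alachlor and butachlor above the vehicle range and metolachlor (0.42) and dimethenamid (0.22) inside it. Nqo1 and Osgin1 had differences of 1.28 and 1.12 but did not pass (limma adjusted p = 0.447 and 0.517), and Slc7a11 (0.31), Gsta4 (0.38) and Gclc (0.16) did not either.

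The 5 compounds were used at 1 concentration, so their values can be set side by side, without a test since each had 1 library. Alachlor and butachlor share a diethylphenyl ring and differ in the length of the alkoxymethyl chain. Their values were close for Hmox1 (1.96 and 1.98) and Gstm1 (1.05 and 0.87), while Nqo1 was 1.08 with alachlor and 2.13 with butachlor, and Slc7a11 0.456 and 1.005. Acetochlor and metolachlor share an ethylmethylphenyl ring and differ in the side chain on nitrogen. Acetochlor was higher for every member, with Gclm at 1.15 against 0.11 and Nqo1 at 2.61 against -0.49. Dimethenamid, which has a thiophene in place of the benzene ring, lay inside the vehicle range for all 10 members.

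Few genes of other lists were called with the chloroacetamides, where 0.0676% of all genes were called higher and 0.0376% lower. Of 12 other glutathione and thioredoxin genes, 1 rose, the microsomal glutathione transferase Mgst1 (difference 0.95 ± 0.21 SE; limma adjusted p = 0.0294), and the list's median difference was 0.31 against 0.00 over all genes. Of 13 other NADPH, iron and detoxification genes, 8 NRF2 regulators, 10 ATF4 targets and 7 heat shock and metal response genes none were called, with median differences of 0.13, -0.01, 0.04 and 0.18. None of the 8 neuron, 7 astrocyte or 4 microglia markers measured were called, with median differences of -0.01, -0.12 and -0.23; in this class 836 genes had an unadjusted p under 0.05. Leaving out acetochlor or butachlor left 1 called member, Srxn1 (limma adjusted p = 0.00189 and 6.29e-06), and leaving out alachlor left 3. Fewer chemicals enter these fits, and the 5 differences stayed positive in each.

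**Figure D3:**
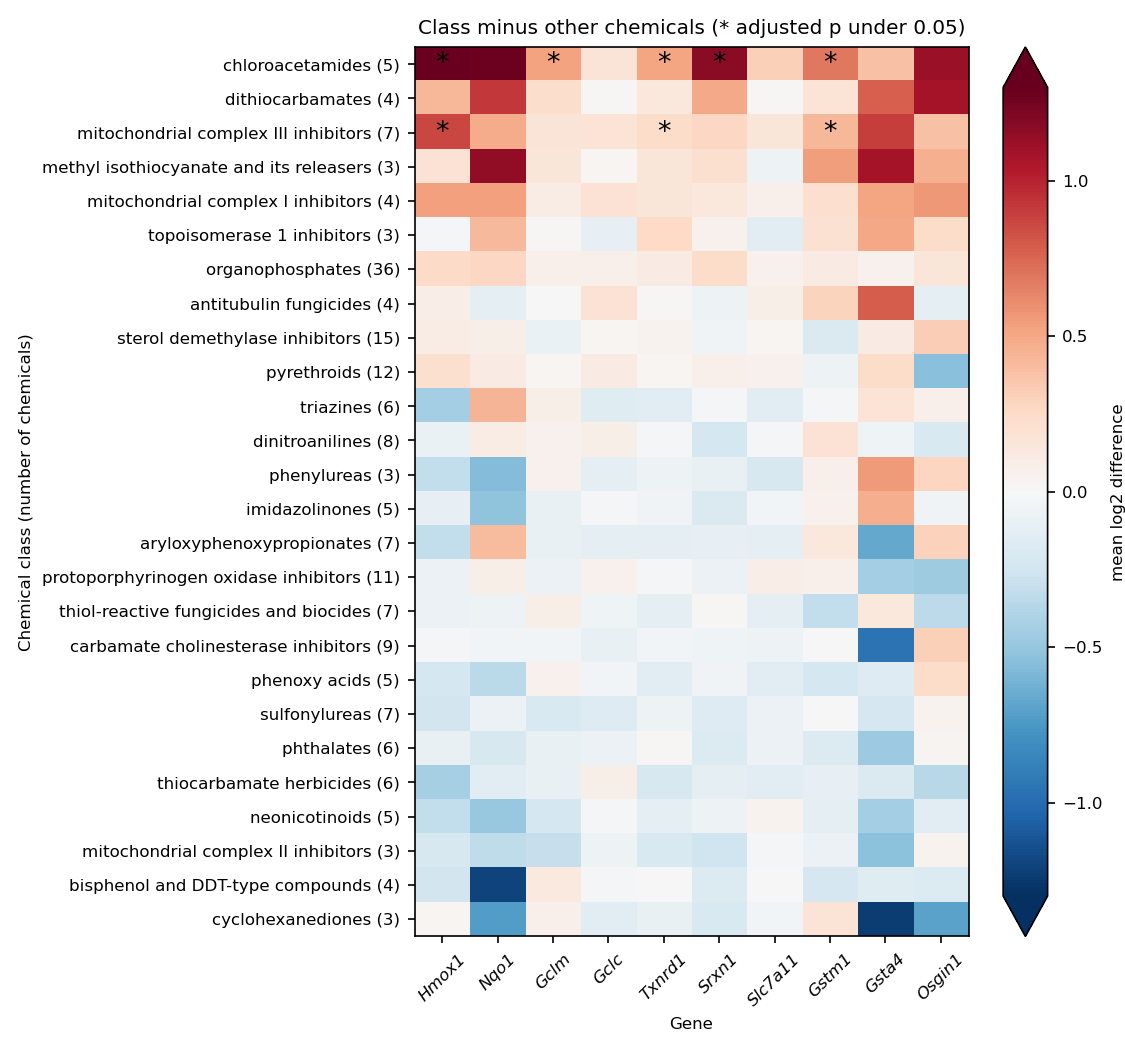
Mean log2 difference between the chemicals of a class and all other chemicals (colour) for 26 classes (rows, with the number of chemicals) and 10 members (columns), ordered by the mean over the members. Stars mark the 8 pairs with a limma adjusted p under 0.05, 5 for chloroacetamides and 3 for complex III inhibitors.

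Complex III inhibitors block the cytochrome bc1 complex of the respiratory chain, and their 7 chemicals were used at concentrations from 0.1 to 10 μM. In this class 5.53% of all genes were called higher and 12% lower. Hmox1 stood at 2.44 with pyraclostrobin (0.1 μM), 2.07 with trifloxystrobin (10 μM), 1.59 with fenamidone (10 μM) and 1.32 with famoxadone (10 μM). It stood at 0.39 with fluoxastrobin (1 μM), -0.04 with azoxystrobin (0.1 μM) and -0.27 with cyazofamid (10 μM). The first 4 lay above every vehicle library and the other 3 inside the vehicle range. The class exceeded other chemicals by 0.87 ± 0.21 (SE, n = 7; limma adjusted p = 0.000919). Gstm1 rose by 0.43 ± 0.14 (SE; limma adjusted p = 0.0143) and Txnrd1 by 0.24 ± 0.09 (SE; limma adjusted p = 0.0314).

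The same 4 fungicides were highest for Txnrd1, between 0.34 and 0.55, and for Srxn1, between 0.39 and 0.94, above the vehicle range for both. The other 3 lay inside it, at most 0.16 for Txnrd1 and 0.22 for Srxn1. Famoxadone entered as the median of its libraries, and 1 of them (0.23) lay inside the vehicle range of Txnrd1. Srxn1 did not pass over the class (difference 0.27; limma adjusted p = 0.208), nor did Gsta4 (0.90; 0.122). Of the inhibitors at 10 μM, trifloxystrobin, fenamidone and famoxadone lay above the vehicle range of Hmox1, Txnrd1 and Srxn1, and cyazofamid lay inside it. At 0.1 μM pyraclostrobin lay above these ranges and azoxystrobin inside them. Trifloxystrobin, cyazofamid and pyraclostrobin had 1 library each, so these are values without a test, and fluoxastrobin was the only one at 1 μM.

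Neuronal genes fell in this class. All 8 neuron markers were called lower, with a median difference of -0.34, where 12% of all genes were called lower. Called higher were 2 of 7 astrocyte markers (Gfap and Gja1), 2 of 4 fibroblast markers and 0 of 4 microglia markers. The median differences of these 3 lists were 0.38, 0.58 and 0.34. Of 3 endothelial and mural markers Pdgfrb (0.54) was called higher, and of 5 oligodendrocyte lineage markers Cspg4 (0.42), with list medians of 0.27 and 0.14. Their part in the rise of the members was not tested. Of 8 NRF2 regulators, Nfe2l2 (0.44) and Mafk, a small MAF partner (0.28), rose. Of 12 other glutathione and thioredoxin genes, Prdx6, a peroxiredoxin (0.52), Gss, glutathione synthetase (0.51), and Slc3a2, the partner of Slc7a11 (0.20), rose. Of 13 other NADPH, iron and detoxification genes, Ephx1 (0.37) and Fth1 (0.12) rose. Among 10 ATF4 targets Psat1 (0.27) rose. Among 7 heat shock and metal response genes Mt2 (0.47) rose and Hsph1 (-0.19) fell. Without pyraclostrobin no member was called, and without famoxadone, fenamidone or trifloxystrobin 1 was, Hmox1 each time; the limma adjusted p of Hmox1 without pyraclostrobin was 0.0525.

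Other classes stood next in order without a called member. The dithiocarbamates (4 chemicals at 10 μM) had differences of 1.08 for Osgin1, 0.92 for Nqo1, 0.49 for Srxn1 and 0.44 for Hmox1, with every limma adjusted p at 1; 0 genes of the screen were called higher. Methyl isothiocyanate and its releasers (3 chemicals) had 1.16 for Nqo1 and 0.54 for Gstm1 (limma adjusted p = 0.993). Complex I inhibitors had 0.53 for Hmox1 (limma adjusted p = 0.385), between 2.18 with fenpyroximate (0.1 μM) and -0.39 with tebufenpyrad (0.01 μM). Like complex III inhibitors, they had Nfe2l2 (0.48; limma adjusted p = 0.00984), Prdx6 (0.44; 0.0243) and Mt2 (0.69; 0.0428) called higher. The neuron markers Gad1, Map2, Snap25, Stmn2 and Syn1 were called lower with them. Of all genes 0.564% were called higher and 3.98% lower in this class. With the 3 complex II inhibitors Hmox1 lay between -0.27 and 0.26, and no member exceeded its vehicle range. These classes hold 3 or 4 chemicals, and a difference that misses the threshold does not show that they left the members alone.

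The 36 organophosphates were uneven. Many organophosphates are insecticides that act by inhibiting acetylcholinesterase. Hmox1 values of the 36 ran from -1.32 with chlorpyrifos-methyl, the lowest of all chemicals, through a median of 0.34 to 2.82 with phosalone, the highest. Above the vehicle range were 10 of the 36 for Hmox1, 12 for Srxn1 and 7 for Txnrd1. The class difference was 0.25 ± 0.10 (SE, n = 36) for Hmox1 and 0.23 ± 0.07 for Srxn1 (limma adjusted p = 0.629 and 0.223), where 9 genes of the screen were called higher. After phosalone, Srxn1 was highest with naled (1.34), trichlorfon (1.29), azamethiphos (1.28) and malaoxon (1.13).

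Some organophosphates differ by a single named change and were used at 10 μM in 1 library each. Malathion and its oxon malaoxon, in which oxygen replaces the sulfur bound to phosphorus, gave 0.95 and 1.33 for Hmox1 and 0.86 and 1.13 for Srxn1. Diazinon and diazoxon gave 0.46 and 0.39 for Hmox1 and 0.07 and 0.13 for Srxn1. For Hmox1 and Srxn1 the compounds of each pair lay closer together than the pairs lay to each other. This did not extend to all members. Malaoxon was among the 5 highest chemicals for Gclc (0.65) and Osgin1 (1.675), and malathion was not. Chlorpyrifos-methyl and chlorpyrifos oxon differ in the alkyl groups as well, and Hmox1 was -1.32 and 0.39. Naled, a brominated dichlorvos, gave 2.35 for Hmox1 where dichlorvos gave 1.05, and 1.34 for Srxn1 where dichlorvos gave 0.43.

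Fungicides and biocides that react with thiols had no called member as a class. Among the 7, Hmox1 lay above its vehicle range with chlorothalonil alone (1.09 at 1 μM). It stood between -0.42 and 0.30 with anilazine, captafol, captan, folpet, methylene bis(thiocyanate) and TCMTB. Gstm1 had a difference of -0.32 (limma adjusted p = 0.843), with methylene bis(thiocyanate) at -1.06, the lowest of all chemicals.

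The second comparison set the 15 chemicals with 2 or more libraries against the 49 vehicle libraries, which they share, in 1 limma fit. Members were called higher with 6 chemicals, in 19 pairs, and lower with topotecan alone, in 2. With the other 9 no member was called. Of all genes, at most 0.0451% (prochloraz and thiram) were called higher and at most 0.346% (prochloraz) lower. With azoxystrobin 0 were called either way. Between 566 (azoxystrobin) and 1288 (prochloraz) of the 13304 genes had an unadjusted p under 0.05, a count that includes genes under this limit by chance. No label says whether the libraries of a chemical came from separate cultures, so the p-values measure the spread between these libraries.

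Fenamidone at 10 μM raised 5 of 10 members, where 4.88% of all genes were called higher and 11.2% lower. Hmox1 was 1.27 and 1.91 in its libraries, Gstm1 0.80 and 1.11, Srxn1 0.55 and 0.52, Txnrd1 0.38 and 0.52, and Gclm 0.30 and 0.44. Both libraries lay above every vehicle library for the first 4, and 1 did for Gclm. The differences from vehicle were 1.66 ± 0.26, 1.02 ± 0.21, 0.56 ± 0.14, 0.47 ± 0.12 and 0.43 ± 0.15 (SE), with limma adjusted p from 3.95e-07 for Hmox1 to 0.0268 for Gclm. Famoxadone at 10 μM raised 4 members, where 3.26% of genes were called higher and 8.32% lower. Its differences were 1.38 for Hmox1, 0.83 for Gstm1, 0.41 for Srxn1 and 0.35 for Txnrd1, with limma adjusted p from 3.84e-05 to 0.0363. For Gstm1 (0.64) and Txnrd1 (0.23), 1 famoxadone library lay inside the vehicle range.

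These 2 complex III inhibitors, an imidazolinone and an oxazolidinedione, were compared directly at the same concentration. No member was called different between them. The difference, fenamidone minus famoxadone, was 0.27 for Hmox1 with a 95% interval of -0.43 to 0.98, 0.19 for Gstm1 (-0.38 to 0.76), 0.14 for Srxn1 (-0.24 to 0.53) and 0.11 for Txnrd1 (-0.21 to 0.44). Each limma adjusted p was 1, 414 genes had an unadjusted p under 0.05, and 0% of genes were called higher and 0.0301% lower. With both, all 8 neuron markers were called lower (median differences -0.76 for fenamidone and -0.55 for famoxadone), and 4 and 2 of 7 astrocyte markers and 1 and 0 of 4 microglia markers higher. Also higher were 2 of 4 fibroblast markers with each and 2 and 1 of 5 oligodendrocyte lineage markers. Median differences with fenamidone and famoxadone were 0.71 and 0.60 for the members. They were 0.79 and 0.61 for astrocyte, 0.95 and 0.62 for microglia and 0.87 and 1.05 for fibroblast markers. For oligodendrocyte lineage markers they were 0.59 and 0.09, and for endothelial and mural markers 0.51 and 0.59. The part of these markers in the members' values was not tested. Azoxystrobin at 0.1 μM, of the same class, gave 0.02 ± 0.26 (SE) for Hmox1.

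Mancozeb at 10 μM raised 2 members, where 5 genes of the whole screen (0.0376%) were called higher and 17 (0.128%) lower. Srxn1 was 1.41 and 0.84 in its libraries and Hmox1 2.20 and 0.62, all above the vehicle range, for differences of 1.14 ± 0.14 and 1.47 ± 0.26 (SE; limma adjusted p = 1e-08 and 0.000515). For Hmox1 the difference was 0.68 without the first library and 2.26 without the second (limma adjusted p = 0.729 and 1.57e-05). The other single libraries of the class divided as well: metiram-zinc gave 1.25 for Hmox1 and 1.08 for Srxn1, and maneb -0.35 and -0.09. Chlorothalonil at 1 μM raised 3 members, where 0.842% of genes were called higher. Srxn1 was 1.01 in both libraries, Hmox1 1.11 and 1.06, and Txnrd1 0.47 and 0.45, all above the vehicle range, with limma adjusted p of 8.91e-08, 0.00494 and 0.0157.

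Neither mancozeb nor chlorothalonil had a called neuron marker (0 of 8 each), where 0.128% and 0.564% of all genes were called lower. The median differences were -0.08 and 0.02, and the lowest were -0.62 and -0.18. Of 7 astrocyte markers 0 were called for mancozeb and 2 called lower for chlorothalonil (median difference -0.62). Chlorothalonil also raised 4 of 7 heat shock and metal response genes and 1 of 10 ATF4 targets. Mancozeb raised 0 of both lists.

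Mancozeb, a metal complex of an ethylene bisdithiocarbamate, was compared with 2 relatives at 10 μM, each with 2 libraries. Ethylenethiourea, a breakdown product without the dithiocarbamate groups, gave -0.61 and -0.63 for Hmox1 and -0.04 and -0.58 for Srxn1. Mancozeb exceeded it by 2.03 ± 0.36 for Hmox1, 1.432 ± 0.19 for Srxn1 and 0.68 ± 0.16 for Txnrd1 (SE; limma adjusted p = 0.000441, 5.03e-07 and 0.0485), where 0.0977% of genes were called higher. Thiram, a metal-free dimethyl dithiocarbamate disulfide, gave 0.29 and 0.30 for Hmox1 and 0.01 and 0.48 for Srxn1. Mancozeb exceeded it for Srxn1 by 0.88 ± 0.19 (SE; limma adjusted p = 0.0237), where 0.0752% of genes were called higher. For Hmox1 the difference of 1.11 had a 95% interval of 0.40 to 1.82 and did not pass (limma adjusted p = 0.162). These and the fungicide pair above were the 3 pairs compared; p-values were adjusted over genes within each pair.

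Rotenone, a complex I inhibitor, at 0.01 μM raised Hmox1 (1.10 and 0.59 in its libraries; difference 0.91 ± 0.26 SE; limma adjusted p = 0.0415), where 0.466% of genes were called higher. Of these libraries 1 lay above the vehicle range. The calls with 2 libraries rest on both: with 1 library left, fenamidone had 3 or 1 called members, famoxadone 2 or 0, chlorothalonil 1 either way, and rotenone 0 either way. Mancozeb had 0 without its first library and 3 without its second. The lone library was assumed to vary like the other groups. Srxn1 stayed called with either chlorothalonil library, and Hmox1 with either fenamidone library.

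**Figure D4:**
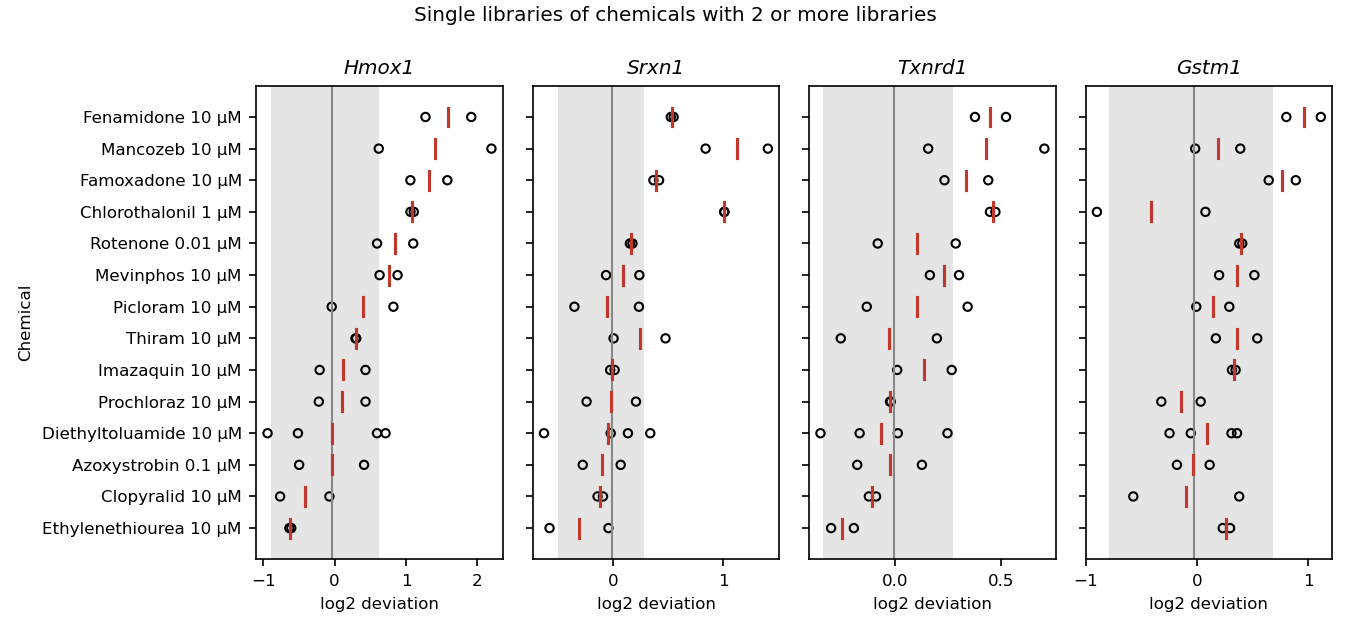
Single libraries (circles) and means (red lines) of 14 chemicals with 2 or 4 libraries, for Hmox1, Srxn1, Txnrd1 and Gstm1 (horizontal axes, log2 deviation; each panel has its own scale). The grey band spans the 49 vehicle libraries and the grey line is their median; fenamidone lay outside the band for all 4 genes and ethylenethiourea had the lowest mean Hmox1.

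Topotecan, a topoisomerase 1 inhibitor with 32 libraries at 0.3 μM, gave another pattern. Txnrd1 ran from -0.03 through a median of 0.26 to 0.67 and exceeded vehicle by 0.30 ± 0.04 (SE; limma adjusted p = 2.61e-11), with 15 of 32 libraries above the vehicle range. Gstm1 (0.23), Nqo1 (0.50) and Srxn1 (0.10) were also called higher, and Slc7a11 (-0.26) and Gclc (-0.16) lower. Hmox1 differed from vehicle by 0.02 ± 0.08 (SE; limma adjusted p = 0.842). With topotecan 24.8% of all genes were called higher and 20.9% lower, so that 4 and 2 of 10 members are near the shares of any gene.

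The third comparison used counts, for pyraclostrobin at 0.1 μM against vehicle. Pyraclostrobin is a strobilurin that inhibits complex III. Library totals ran from 2409623 to 2550437 counts with pyraclostrobin. In vehicle libraries 1 to 4 they were 2893598, 2778615, 7833440 and 7082405 counts. Levels are given as CPM, counts scaled to a common library size with TMM factors. Of the 10 members 8 rose by edgeR's quasi-likelihood test at an adjusted p of 0.01, and none fell. Among the 12324 genes tested 12.1% rose and 9.22% fell. In the same 8 members all pyraclostrobin libraries lay above all vehicle libraries, which held for 18.2% of genes. The screen library of pyraclostrobin carries the sequencing number of library 1 of this table, so the tables are not independent. They differ in size of response. Hmox1 stood at 2.44 in that screen library, while its log2 fold change in the counts was 3.99. In the screen, pyraclostrobin was not among the chemicals that raised at least 3 members by the rule of size. Screen deviations should therefore not be read as fold changes in counts.

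Hmox1 showed the largest change. It stood at 715, 194, 271 and 171 CPM in pyraclostrobin libraries 1 to 4 and at 40.7, 16.7, 16.04 and 14.6 CPM in vehicle libraries 1 to 4. All treated libraries lay far above all vehicle libraries. The log2 fold change was 3.99 (15.9-fold; edgeR adjusted p = 0.000222), and 3.28 without pyraclostrobin library 1. Gsta4 rose from 7.85, 0.78, 2.56 and 1.05 CPM to 39.6, 13.5, 12.9 and 22.9 CPM (log2 fold change 2.99; edgeR adjusted p = 0.00255), and the groups did not overlap. Its vehicle libraries held 22, 2, 19 and 7 counts, so that this fold is imprecise; without vehicle library 1 the log2 fold change was 3.73.

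The other glutathione transferase and the thioredoxin genes followed. Gstm1 stood at 175, 95.4, 107 and 95.2 CPM with pyraclostrobin and at 55.6, 24.5, 24.0 and 16.4 CPM with vehicle (log2 fold change 2.01; edgeR adjusted p = 0.00118). Srxn1 stood at 463, 117, 182 and 116 CPM against 76.0, 49.8, 55.8 and 51.8 CPM (1.91; edgeR adjusted p = 0.00395), and its log2 fold change was 1.21 without pyraclostrobin library 1. Txnrd1 stood at 573, 266, 295 and 248 CPM against 151, 124, 116 and 113 CPM (1.46; edgeR adjusted p = 0.0011). In all 3 the groups were apart and library 1 was the highest of its group, treated or vehicle.

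Both subunits of glutamate-cysteine ligase rose, by less. Gclm stood at 116, 50.7, 59.8 and 53.3 CPM against 21.04, 34.3, 33.7 and 32.7 CPM (log2 fold change 1.19; edgeR adjusted p = 0.00592). Gclc stood at 119, 56.4, 77.3 and 56.1 CPM against 36.4, 43.2, 31.9 and 39.02 CPM (1.04; edgeR adjusted p = 0.00561). Nqo1 rose from 4.64, 0.78, 2.16 and 1.35 CPM to 11.4, 5.26, 13.3 and 5.53 CPM (2.04; edgeR adjusted p = 0.00689), at no more than 35 counts in any library.

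Osgin1 and Slc7a11 did not pass. Osgin1 stood at 6.28, 4.88, 6.47 and 0.79 CPM against 3.92, 0.39, 0.81 and 1.20 CPM (log2 fold change 1.68; edgeR adjusted p = 0.0637), and the groups overlapped. Slc7a11 stood at 182, 33.1, 55.2 and 35.6 CPM against 54.2, 48.3, 48.4 and 57.0 CPM (0.55; edgeR adjusted p = 0.384). Library 1 stood far above the other treated libraries, and 2 of those 3 lay below every vehicle library; without it the log2 fold change of Slc7a11 was -0.38.

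**Figure D5:**
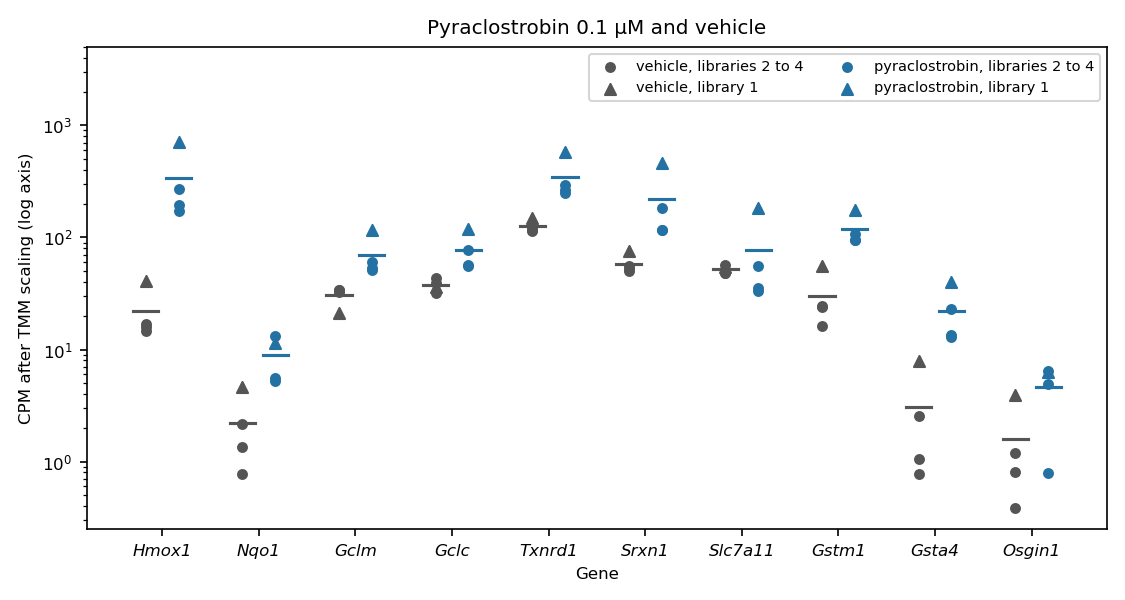
CPM after TMM scaling (log axis) of the 10 members (horizontal axis) in 4 vehicle libraries (grey) and 4 pyraclostrobin libraries (blue), with bars at group means and triangles for library 1 of each group. The groups did not overlap for 8 members and overlapped for Slc7a11 and Osgin1.

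Library 1 of pyraclostrobin held the highest value for 8 of the 10 members and stood apart for several, and leaving out libraries lowered the count of calls. At an adjusted p of 0.01 it was 5 without pyraclostrobin library 1, 4 without pyraclostrobin library 3, 4 without vehicle library 2 or 4, and 3 without vehicle library 3. It was 8 without pyraclostrobin library 2 or 4 or vehicle library 1. At 0.05 it was 8 or 9 in each of these fits. Hmox1, Txnrd1 and Gstm1 were called at 0.01 in all of them.

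Other genes of the pathway rose in part. Of the 8 NRF2 regulators, 3 rose and none fell: Nfe2l2 itself (33.98 ± 13.9 to 147 ± 44.4 CPM, SD, n = 4; log2 fold change 2.14; edgeR adjusted p = 0.000237), Maff (2.05; 8.77e-05) and Mafk (1.26; 0.000145). Keap1 had a log2 fold change of -0.26 (edgeR adjusted p = 0.0897). Of 12 other glutathione and thioredoxin genes 4 rose, led by Mgst1 (2.29), Prdx6 (2.21) and Gss (1.44), and of 13 other NADPH, iron and detoxification genes 2 rose, the epoxide hydrolase Ephx1 (2.11) and the carbonyl reductase Cbr3 (2.01). The median log2 fold changes of these lists were 0.06, 0.82 and 0.45, that of the members 1.80, and that of all genes 0.00. Other stress lists rose in part too, with 5 of 10 ATF4 targets (Trib3 1.96, Sesn2 1.80, Psat1 1.51). So did 4 of 7 heat shock and metal response genes (Mt2 2.53, Mt1 2.22, Hspa1b 1.12).

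Cell type markers moved with this result. Of 8 neuron markers 7 fell, where 9.22% of all genes tested fell. The summed level of the 8 was 8277 to 9040 CPM in vehicle libraries and 3516 to 4567 CPM in treated ones. All 6 microglia markers tested rose (21.6 to 28.02 CPM against 69.1 to 132 CPM), while Aif1 and P2ry12 had a median of at most 3 counts and were not tested. Of 7 astrocyte markers 1 rose, Gja1, but the summed level was 723 to 1223 CPM in vehicle and 1054 to 3615 CPM in treated libraries, and the list's median log2 fold change of 1.96 exceeded that of the members. Library 1 was the highest of its group for each astrocyte marker tested, except Slc1a2 in vehicle, where it was the lowest. Gfap stood at 640, 60.1, 93.6 and 82.2 CPM in pyraclostrobin libraries 1 to 4 and at 151, 21.02, 29.1 and 21.9 CPM in vehicle libraries 1 to 4. Of the others, 2 of 5 oligodendrocyte lineage, 2 of 2 endothelial and mural, and 3 of 4 fibroblast markers rose. Their part in the rise of the members was not tested.

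The members did not vary as 1 unit over the 297 chemicals. Hmox1, Srxn1 and Txnrd1 were closest, with Pearson's r of 0.74 for Hmox1 and Srxn1 (Spearman's rho 0.56), 0.72 for Txnrd1 and Srxn1 (rho 0.51) and 0.71 for Hmox1 and Txnrd1 (rho 0.52). Without the 2 chemicals farthest from the median of the first gene these were 0.72, 0.67 and 0.68. Over the 49 vehicle libraries the same pairs had r of 0.38, 0.14 and 0.23. The lowest mean r with the other members were close together, at 0.245 for Slc7a11, 0.246 for Osgin1 and 0.252 for Gsta4. Slc7a11 had its highest r for Srxn1 (0.38) and its lowest for Gsta4 (0.09). The points share a normalization and are descriptions; Nqo1, Gsta4 and Osgin1 had the largest SD over vehicle libraries.

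Outside the list, the genes most like the mean of the scaled members were Nes (r = 0.67), Prdx6 (0.60), Hspb8 (0.58), Lamp2 (0.55) and Fth1 (0.54). Next came Ddit4l, Cd151, Mgst1, Abhd4 and Ephx1, between 0.52 and 0.50. Nes encodes nestin, Hspb8 a small heat shock protein, Lamp2 a lysosomal membrane protein and Fth1 the ferritin heavy chain. Without the 10 highest chemicals the r of these 10 genes lay between 0.35 and 0.53.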

How the data were processed

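Polyadenylated RNA of mouse cortical cultures was sequenced by the authors, aligned to mm9 with TopHat and counted over RefSeq exons joined by symbol. The raw counts for pyraclostrobin were deposited as such. For the screen the authors deposited log10 RPKM values after quantile normalization, centring on each gene's median and a mixed model that took out differences between cultures and between sequencing runs; depth is unknown and batches cannot be examined there. Values were converted to log2.

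Each screen library was mapped by its label. Columns of the count table were mapped to their group only. A count table for sulforaphane before fenamidone was not used: its 6 columns share 1 name and could not be assigned, so the planned test was not run.

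Screen values were tested with limma 3.58.1 without a variance trend (R 4.3.3), each chemical entering class tests as the median of its libraries; alternatives were vehicle as reference, 10 μM only, single libraries, a trend, other adjustment and thresholds, and the 5121 genes with an SD above 0.1 on the log10 scale. Counts (at least 10 in at least 4 libraries) were tested with edgeR 4.0.16, TMM and the quasi-likelihood test; DESeq2 1.42.0, other size factors, no filter, a replicate block and left-out libraries were alternatives. P-values are two-sided, with Benjamini-Hochberg adjustment over all genes. SE of the screen are limma's moderated ones. At the smallest total, genes of a few CPM rest on few counts.

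All 10 members are named. Of each other list (NRF2 regulators, other glutathione and thioredoxin genes, other NADPH, iron and detoxification genes, ATF4 targets, heat shock and metal response genes, cell type markers) up to 3 called genes are named. For chemicals the rule takes extremes of each member, the 10 highest by mean and classes with a called member; not all extremes are printed, and further chemicals of other classes were chosen after their values were seen. Members, lists and classes were chosen with earlier results of these data known. Scripts were tested on simulated data. Sequences came from RefSeq (GRCm38.p6) and NCBIM37 with GENCODE starts.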

Additional observations from a re-analysis of the deposited data

Results flagged for a closer look

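In 6 of 30 groups of 4 libraries examined (10 members in pyraclostrobin, count table vehicle and diethyltoluamide libraries), 1 library lay far from the other 3 by Dixon's ratio, with a limit of 0.829; chance does so in about 1 of 20 groups. In pyraclostrobin it was the highest library each time, library 1, with Gclm at 116 CPM (ratio 0.862), Txnrd1 at 573 CPM (0.853), Slc7a11 at 182 CPM (0.852) and Gstm1 at 175 CPM (0.858). In vehicle, Hmox1 was high at 40.7 CPM (0.917) and Gclm low at 21.04 CPM (0.884), both in library 1. With both libraries numbered 1 left out, an alternative chosen after seeing the data, 8 of 10 members were called higher, as with all libraries.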

How the results depend on the processing

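The class count of 8 pairs became 19 against vehicle libraries, 4 at a threshold of 0.01, 5 with variably expressed genes only, and 4 to 9 with 1 chemical left out; lower pairs went from 0 to 2 on single libraries. Chloroacetamides had 3 called members at 0.01, 3 with variably expressed genes and 1 to 5 with 1 chemical left out. Complex III inhibitors had 1 when adjusted over all genes and classes, 6 against vehicle libraries, 1 at 0.01, and 0 to 4 with 1 chemical left out. For chemicals with 2 or more libraries the 19 pairs became 12 at 0.01 and 11 with variably expressed genes, where the 2 lower pairs became 0, and 15 to 20 with 1 library left out. At 0.01 and with variably expressed genes, famoxadone and topotecan each had 2, and rotenone 0; with variably expressed genes fenamidone had 3 and topotecan 0 lower. With 1 library left out the ranges were 1 to 1 for chlorothalonil, 0 to 2 for famoxadone, 1 to 3 for fenamidone, 0 to 3 for mancozeb and 0 to 0 for rotenone. The variably expressed set tests fewer genes and leaves out Gclm, Gclc, Txnrd1 and Slc7a11; otherwise the cause was not tested.

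In the counts, 3 to 8 members were called with 1 library left out, and 8 with DESeq2, with other size factors and without a filter. The log2 fold change of Slc7a11 ran from -0.38 to 0.76 with 1 library left out, and was -0.38 without pyraclostrobin library 1 and -0.32 without both libraries numbered 1 (edgeR adjusted p = 0.158 and 0.101). Same-numbered libraries had correlations of 0.375, 0.101, -0.0293 and 0.16 in their deviations. The pair at -0.0293 missed the bar of 0.1 that every pair had to pass, and no label ties a number to a shared culture, so the numbers were not used as pairs; the 2 libraries numbered 1 did deviate together, and 2 of 8 libraries correlated best with their own number. With the replicate block 7 members were called, Gclm being lost (edgeR adjusted p = 0.012). Of single gene values, 331 in the screen and 112 in the counts kept direction and call, and 67 and 21 kept direction but missed the threshold. The sulforaphane alternatives were not run. Depth limits Nqo1, Gsta4 and Osgin1, at 35, 101 and 17 counts or fewer per library.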

Other observations

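After phosalone, the highest value of Slc7a11 was with propargite, an acaricide used at 1 μM (1.10), which also gave 1.67 for Hmox1, 0.70 for Srxn1 and 0.51 for Txnrd1, all above the vehicle range. Emamectin benzoate at 1 μM was the fifth (0.79), with Hmox1 at 1.04. The lowest values of Slc7a11 were with etridiazole (-0.54) and propanil (-0.51), and the lowest of Gclc with linuron (-0.63), each at 10 μM in 1 library, with no test.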
